A study of Mus musculus with 8 samples.

Results

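The 42 genes described here encode cytokine and hormone receptor chains, the JAK kinases bound to them, STAT transcription factors, and proteins that limit the signal, namely the SOCS family with Cish, the PIAS proteins and the tyrosine phosphatases of the pathway. They were taken by symbol from a list that was set with earlier results of these data known. All 42 were present among the 34945 named genes of the table, and the list does not hold every member of these families. Poly-A RNA was measured in AML12, an established mouse hepatocyte line that came from a liver carrying a human TGF-alpha transgene. Of 8 cultures in serum-containing medium, 4 received scrambled siRNA (Scr, labelled WT) and 4 received Casp8 siRNA (siCasp8, labelled as Casp8 knockdown), each at 40 nM with a lipid carrier and collected after 48 hours. No agent other than the siRNA and its carrier is named for either group, every culture came from the same cell line, and silencing was partial. The 4 cultures of a group are described as biological replicates with no word on separate days, so p-values measure the spread between these cultures. The comparison is of siCasp8 with Scr, and Casp8 encodes the initiator caspase of death receptor signalling.

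In this pathway a cytokine or hormone joins receptor chains that have no enzyme activity of their own, and JAK kinases bound to those chains phosphorylate the receptor and then STAT proteins, which pair and enter the nucleus. Several SOCS proteins and CIS, the product of Cish, are made in response to STATs and close a negative feedback loop. In the liver, IL-6 family cytokines acting through the shared chain gp130 and STAT3 drive the acute phase response, and growth hormone acting through JAK2 and STAT5 drives Igf1 transcription.

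Values are the authors' normalized signal per gene, and a fold change is siCasp8 against Scr on the log2(value + 1) scale, which understates the change of low genes. A gene was called when limma's moderated test, adjusted by the Benjamini-Hochberg method over all 14154 tested genes (mean value of at least 10), gave an adjusted p under 0.05. Casp8, on chromosome 1 from 58795374 to 58847503 (GRCm38), averaged 3972 ± 129 across Scr cultures against 1480 ± 108 across siCasp8 cultures (SD, n = 4 each). The remainder was 37.3% (log2 fold change -1.43, SE 0.0525). Estimated depth was 30.7 to 51.8 M reads in Scr and 50.5 to 57.1 M in siCasp8 (exact two-sided permutation p = 0.0571). A fit with depth as a covariate is given wherever it ended a call. Because depth largely followed group, that fit estimates the group difference less precisely. A call lost there does not by itself mean that depth made the change. Of 6 hepatocyte markers 3 were higher (Alb, Ttr and Serpina1b) and 1 lower (Apob, -0.25). Hnf4a was 6017 to 7059 in the 8 libraries, Apoa1 was only 9.66 to 22.6, and Alb was 70.5 to 94.4 in Scr and 3380 to 3948 in siCasp8. Of 8 cholangiocyte markers 6 were tested, 3 higher and 2 lower. In Scr, Spp1 averaged 89795, Sox9 7900 and Krt19 7764, while Epcam was 0 and Sctr 3.09. Since the RNA is from bulk cultures, fewer cells of a type and less RNA per cell cannot be told apart.

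Across the 41 tested members, 15 were higher and 6 lower after Casp8 silencing, and 20 were not called. In percent, 36.6% of tested members were higher, where 19.4% of all tested genes were, and 14.6% were lower, where 20.8% of all tested genes were. The balance over all genes depended on scaling, with 2739 higher and 2950 lower here, 3148 and 2535 after upper quartile rescaling and 2968 and 2672 after quantile normalization. The members held 17 higher and 5 lower genes under the first of those scalings and 16 and 5 under the other. In either direction 51.2% of members were called against 40.2% of all tested genes. These shares are a description, since the list was chosen with earlier results known. Most members also lay far above the filter mean of 10, down to which the tested genes reached, so the sets are not matched for level. The groups did not overlap for 13 higher and 6 lower members, which is 46.3% of those tested, against 37.5% of all tested genes (18% higher and 19.5% lower). The median log2 fold change was 0.09 for the members and 0.00252 for all tested genes. Of the 41 tested members, 5 were called with a change of at least 0.5 on the log2 scale (Csf1r, Lifr, Ghr, Il1rap and Il11ra1), as were 10.1% of all tested genes. A called change of at least 1 was seen for 0 members and for 2.91% of all tested genes. With the depth covariate 7 of the 21 calls were lost, and the other 14 held under all 17 alternatives run. The 16 receptor chains held 8 higher and 3 lower genes, so that 68.75% were called. The 25 tested genes that act inside the cell held 7 higher and 3 lower, which is 40%. Stat4, whose product carries IL-12 signals in lymphocytes, was the member left untested, with values of 0 in 6 of 8 libraries and at most 1.87.

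**Figure D1:**
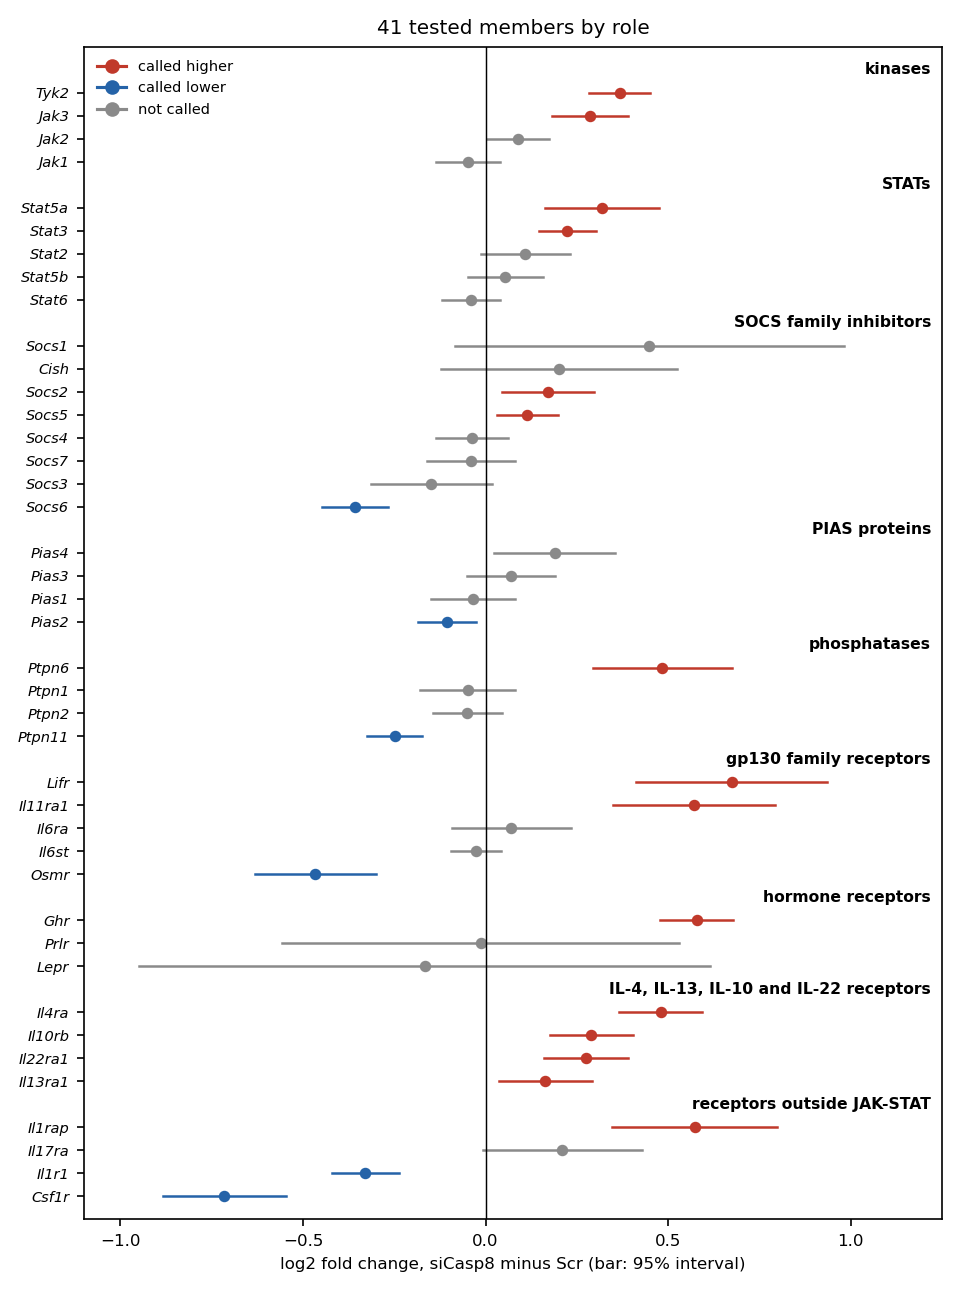
Log2 fold change (siCasp8 minus Scr, x axis) of the 41 tested members grouped by role, with points for the estimate, bars for the 95% interval and colour for the limma call. The 4 members among chains of the IL-4, IL-13, IL-10 and IL-22 receptors all lie above 0, while Lifr and Osmr lie on opposite sides of it.

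Expression levels of different genes were compared per kilobase of mean annotated transcript length (GENCODE M21). That mean weighs every annotated coding transcript alike, short ones included, so the order of genes with similar levels depends on the annotation. On this scale Il6st, the gene of the shared signal chain gp130, was the highest member at 4441 per kb in Scr, followed by Jak1 at 3366, Stat6 at 2424, Jak2 at 2022 and Stat3 at 2014. Before division by length Stat6 averaged 5313 in Scr, below Jak2 at 8186 and Stat3 at 8050. The ligand-specific partners of gp130 were far lower, with Osmr at 149, Lifr at 134, Il11ra1 at 120 and Il6ra at 94.6 per kb. Socs1 (8.91), Prlr (8.51) and Lepr (3.75) were the lowest of the tested members. By this measure AML12 cells held abundant RNA of the shared chain, of 2 kinases and of 2 STATs, and little of the receptors for prolactin and leptin.

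**Figure D2:**
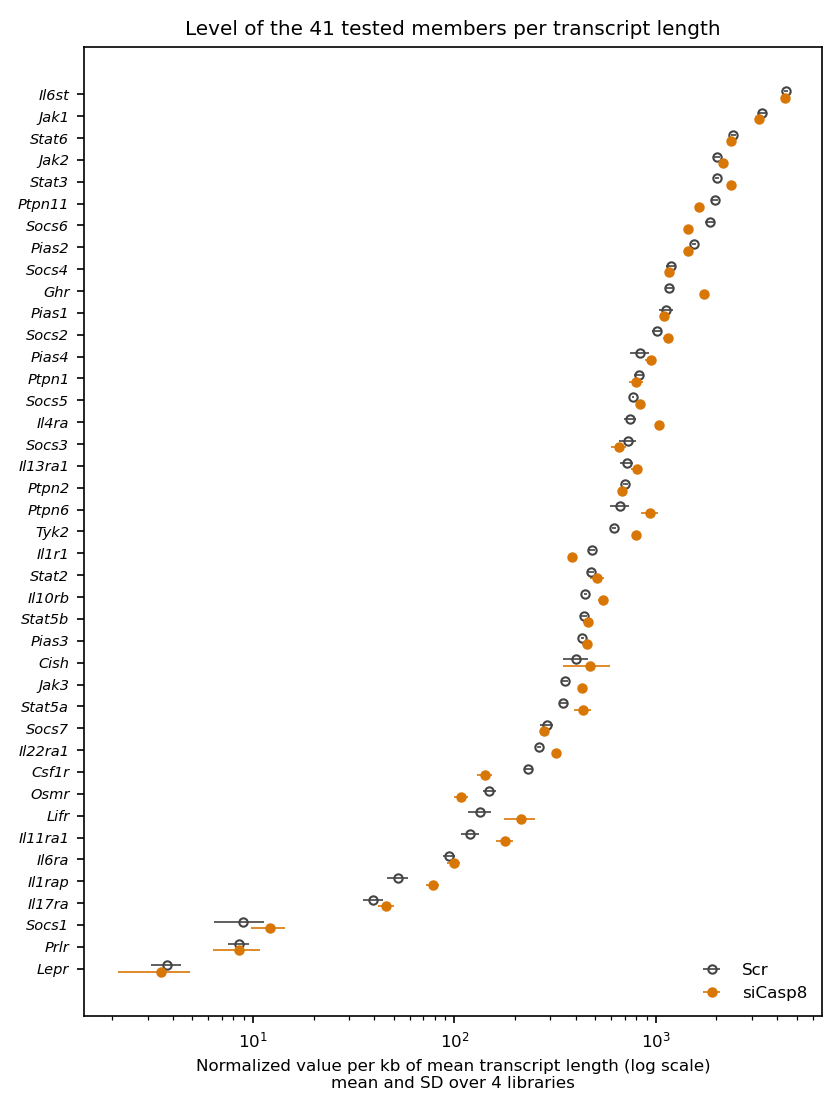
Normalized value per kilobase of mean transcript length (x axis, log scale) of the 41 tested members, as mean and SD over the 4 libraries of each group. Il6st lies at the top with 4441 in Scr and 4364 in siCasp8, and Lepr at the bottom with 3.75 and 3.50.

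Among receptors of the IL-6 family, the shared chain did not pass the test while 2 of its partners rose and 1 fell. Lifr, which encodes the receptor chain for leukaemia inhibitory factor (chromosome 15 from 7090614 to 7197489), was 430, 529, 511 and 593 in Scr replicates 1 to 4 and 788, 1026, 813 and 681 in siCasp8 replicates 1 to 4, and every list of 4 values that follows keeps that order. All 4 siCasp8 libraries lay above all 4 Scr libraries, with siCasp8 replicate 2 the highest. Lifr rose by 0.67 on the log2 scale (SE 0.121, limma adjusted p = 0.000758). With depth as a covariate it was 0.46 (adjusted p = 0.101), which ended the call.

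Osmr, which encodes the oncostatin M receptor chain and lies on the same chromosome from 6813577 to 6874969, went the other way. Its values were 742, 645, 764 and 691 in Scr and 562, 478, 485 and 532 in siCasp8. The groups did not overlap, and the gene fell by 0.47 on the log2 scale (SE 0.0761, limma adjusted p = 0.000382). Both chains pair with gp130, and in mouse the oncostatin M signal runs mainly through OSMR. The ratio of the Lifr value to the Osmr value was 0.579 to 0.859 in Scr and 1.28 to 2.15 in siCasp8, given as a description since the pair was picked after its values were seen.

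Il11ra1, which encodes the IL-11 receptor, was 252, 238, 199 and 218 in Scr and 364, 363, 330 and 294 in siCasp8. The lowest siCasp8 library stood above the highest Scr library, a rise of 0.57 on the log2 scale (SE 0.102, limma adjusted p = 0.000735). The locus overlaps Galt on the same strand and has a near-identical copy, Il11ra2, listed at 2.87 to 8.59, so how reads were shared between the copies is uncertain. Il6st was 12290, 12932, 12279 and 12734 in Scr and 12462, 12262, 12104 and 12532 in siCasp8, with overlapping groups and a log2 fold change of -0.03 (95% interval -0.09 to 0.04). Il6ra, the IL-6 binding chain, averaged 567 ± 38.5 and 596 ± 45.0 in the respective groups (SD, n = 4 each) and was not called (0.07, 95% interval -0.09 to 0.23).

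Of the hormone receptor genes, the growth hormone receptor gene rose and those for prolactin and leptin were low. Ghr (chromosome 15 from 3317760 to 3583492) was 2528, 2353, 2318 and 2275 in Scr and 3757, 3457, 3530 and 3405 in siCasp8. Its siCasp8 libraries stood at 149% of the Scr mean with no overlap, and it had the smallest adjusted p of the members (log2 fold change 0.58, SE 0.0458, limma adjusted p = 1.20e-06). Prlr lay between 16.9 and 30.3 in all libraries, and Lepr between 5.57 and 15.5. Neither was called, and their 95% intervals were wide, from -0.56 to 0.53 for Prlr and from -0.95 to 0.61 for Lepr.

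All 4 members that encode chains of the receptors for IL-4, IL-13, IL-10 and IL-22 rose. They are not all the chains of those receptors. Outside the members, Il10ra was at 0 in every library, and Il2rg was not called (651 ± 37.6 and 661 ± 37.8, SD, n = 4 each). Il4ra, whose product binds IL-4 and pairs with the IL-13 receptor chain outside blood cells (chromosome 7 from 125552120 to 125579474), was 1467, 1664, 1433 and 1599 in Scr and 2148, 2142, 2090 and 2203 in siCasp8. The siCasp8 values were tightly grouped and all exceeded Scr, with a log2 fold change of 0.48 (SE 0.0522, limma adjusted p = 1.53e-05). Its partner Il13ra1 rose by only 0.16, from 2668 ± 204 to 2987 ± 179 (SD, n = 4 each), with overlapping groups. That call (adjusted p = 0.0419) was lost with the depth covariate (0.15, adjusted p = 0.308) and without the filter on low values (0.0581). It was also lost without Scr replicate 1 (0.116), 2 (0.0690) or 4 (0.0990) or siCasp8 replicate 2 (0.105) or 3 (0.119).

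Il10rb encodes a chain shared by the receptors for IL-10, IL-22 and type III interferon. It was 843, 819, 809 and 826 in Scr and 1027, 1072, 971 and 966 in siCasp8 (log2 fold change 0.29, SE 0.0526, limma adjusted p = 0.000833). Il22ra1, the other chain of the IL-22 receptor, which in liver marks epithelial cells, was 668, 686, 664 and 688 in Scr and 818, 808, 857 and 791 in siCasp8 (0.27, SE 0.0525, limma adjusted p = 0.00122). For both chains every siCasp8 library exceeded every Scr library, at 122% of the Scr mean for Il10rb and 121% for Il22ra1. An annotated protein-coding gene, Gm21970, overlaps Il10rb on the same strand.

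The other 4 receptors signal by other routes than JAK and STAT proteins. Csf1r encodes the CSF1 receptor, a tyrosine kinase of macrophages. It was 570, 611, 554 and 542 in Scr and 321, 331, 347 and 388 in siCasp8, which left 60.9% of the Scr mean with a wide gap between the groups. Its fall of 0.72 on the log2 scale was the largest change among the members in this fit (SE 0.0772, limma adjusted p = 1.43e-05). With the depth covariate Csf1r was at -0.65, while Il1rap was at 0.76 and Il11ra1 at 0.72. Of 11 macrophage and Kupffer cell markers 5 were at 0 in every library (Adgre1, Clec4f, Marco, C1qa and C1qb) and Lyz2 was at most 1.74, while 1 of the 4 tested was higher (Mrc1) and 1 lower (Cd14). The summed marker level was 2165 to 2382 in Scr and 1770 to 1898 in siCasp8, nearly all of it from Cd14, at 2149 ± 99.5 and 1675 ± 54.5 (SD, n = 4 each), and the part of such cells in the Csf1r value was not tested.

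The IL-1 receptor chains moved in opposite directions. Il1r1, the ligand-binding chain (chromosome 1 from 40225080 to 40317257), was 2450, 2601, 2683 and 2490 in Scr and 2100, 2037, 2012 and 1983 in siCasp8, a fall of 0.33 on the log2 scale without overlap (SE 0.0422, limma adjusted p = 5.83e-05). Il1rap, the accessory chain needed for signalling (chromosome 16 from 26581704 to 26730117), was 217, 199, 170 and 174 in Scr and 281, 309, 284 and 256 in siCasp8, a rise of 0.57 without overlap (SE 0.104, limma adjusted p = 0.000821). The accessory chain had less RNA per length than the binding chain in both groups, at 52.6 against 480 per kb in Scr and 78.1 against 382 per kb in siCasp8. Il17ra, the common chain of IL-17 receptors, was 308 ± 35.6 and 356 ± 33.0 and was not called (0.21, 95% interval -0.01 to 0.43), although it passed without Scr replicate 3 (adjusted p = 0.0424).

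**Figure D3:**
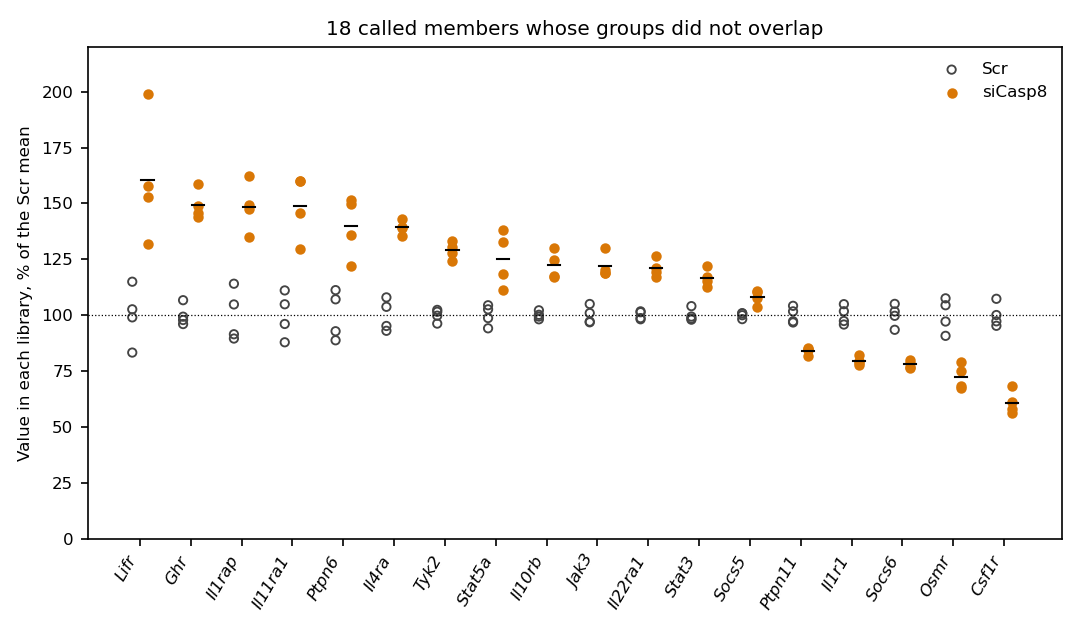
Value in each library as a percentage of the Scr mean (y axis) for the 18 called members with the largest changes whose groups did not overlap, with open circles for the 4 Scr libraries, filled circles for the 4 siCasp8 libraries and a line for the siCasp8 mean. The siCasp8 mean runs from 160% for Lifr down to 60.9% for Csf1r.

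Of the 4 JAK kinase genes, the 2 with the lower levels rose and the 2 abundant ones were not called. Tyk2, whose product serves interferon, IL-10 and IL-12 type receptors (chromosome 9 from 21104068 to 21131243), was 2372, 2459, 2523 and 2502 in Scr and 3219, 3065, 3154 and 3278 in siCasp8. Every siCasp8 library exceeded every Scr library (log2 fold change 0.37, SE 0.0386, limma adjusted p = 1.15e-05). Jak3, which in blood cells works with the common gamma chain, was 1350, 1346, 1404 and 1460 in Scr and 1652, 1650, 1672 and 1808 in siCasp8 (0.29, SE 0.0484, limma adjusted p = 0.000496), and the call was lost with the depth covariate (0.19, adjusted p = 0.0805). Another annotated gene, Insl3, overlaps Jak3 on the same strand.

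Of 10 lymphocyte markers, none of the 3 tested was called by limma, and 0 also passed at an unadjusted p under 0.05. Their summed level was 179 to 229 in Scr and 210 to 238 in siCasp8, led by Ptprc at 124 to 143 and 139 to 174. Whether other cell types had a part in the Jak3 value was not tested. Jak1 was 8966 ± 441 and 8659 ± 248 and was not called (-0.05, 95% interval -0.14 to 0.04). Jak2 was 8186 ± 277 and 8711 ± 375 (0.09, adjusted p = 0.0901). It passed after upper quartile rescaling (adjusted p = 0.0280), quantile normalization (0.0109), with a replicate block (0.0358) and without Scr replicate 3 (0.0340).

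Stat3 and Stat5a rose among the 5 tested STAT genes, and Stat2, Stat5b and Stat6 were not called. Stat3, whose product is the main effector of gp130 (chromosome 11 from 100885098 to 100939540), was 7890, 8378, 7930 and 8002 in Scr and 9816, 9444, 9296 and 9050 in siCasp8. The lowest siCasp8 library stood above the highest Scr library, with a log2 fold change of 0.22 (SE 0.0357, limma adjusted p = 0.000323). Stat5a, which shares growth hormone signalling with Stat5b (chromosome 11 from 100859351 to 100885169), was 883, 867, 795 and 834 in Scr and 1121, 1002, 940 and 1167 in siCasp8 (0.32, SE 0.0715, limma adjusted p = 0.00342). Its siCasp8 libraries were spread more widely than its Scr libraries but did not reach down to them.

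Stat5b was 2269 ± 70.7 and 2357 ± 132 (SD, n = 4 each) and was not called (0.05, 95% interval -0.05 to 0.16). Since the neighbours Stat5a and Stat5b are near-identical paralogs, the split of reads between them is uncertain, and Stat3 and Stat5a overlap at their ends on opposite strands. Stat6, the effector of IL-4 and IL-13, was 5313 ± 141 and 5171 ± 174 (-0.04, 95% interval -0.12 to 0.04) while Il4ra and Il13ra1 rose. Stat2, which forms the interferon-stimulated transcription complex with IRF9, was 2089 ± 70.9 and 2257 ± 176 (0.11, adjusted p = 0.146), and was called without siCasp8 replicate 3 (0.16, adjusted p = 0.0148).

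SOCS-type genes were examined next, because several of them are transcribed in response to STATs and so report on signalling as well as limiting it. STAT dimers bind the word TTCNNNGAA, where N is any base. It was searched together with the longer form that has 1 more free base, preferred by STAT6, in RefSeq promoters of 300 bases (250 before to 50 after each start, GRCm38.p6). Both words equal their own reverse complement, so a match holds on both strands, and no member held both forms. Of 32 members with a promoter in the table, 3 (9.38%) held the shorter word, Cish, Socs3 and Prlr, against 8.55% of 10639 tested genes with a promoter, and 1 (3.13%), Stat2, held the longer one against 6.71%. The promoters of the feedback genes Cish (chr9:107296409-107296708, plus strand) and Socs3 (chr11:117969317-117969616, minus strand) are shown whole, 5′ to 3′, with each word in capitals.
Cish: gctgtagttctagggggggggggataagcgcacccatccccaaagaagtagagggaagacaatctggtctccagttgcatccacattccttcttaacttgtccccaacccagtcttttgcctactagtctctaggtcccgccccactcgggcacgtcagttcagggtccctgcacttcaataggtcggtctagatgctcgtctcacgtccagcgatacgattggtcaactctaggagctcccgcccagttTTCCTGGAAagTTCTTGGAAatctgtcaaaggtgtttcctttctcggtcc
Socs3: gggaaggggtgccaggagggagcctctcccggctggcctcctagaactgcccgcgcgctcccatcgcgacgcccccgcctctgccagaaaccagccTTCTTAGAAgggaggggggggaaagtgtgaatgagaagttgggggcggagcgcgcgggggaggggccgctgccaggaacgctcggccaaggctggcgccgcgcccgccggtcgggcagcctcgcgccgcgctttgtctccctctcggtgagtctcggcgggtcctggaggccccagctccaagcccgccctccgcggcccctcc
For Prlr (chr15:10223656-10223955, plus strand, one of its annotated starts) and Stat2 (chr10:128270248-128270547, plus strand) the word is shown with the bases on either side of it.
Prlr: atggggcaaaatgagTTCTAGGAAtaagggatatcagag
Stat2: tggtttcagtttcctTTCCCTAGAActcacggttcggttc

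The Cish promoter held 2 copies of the word, the first beginning at the RefSeq start (position 0) and the other at position 11. The Socs3 word began at position -154. Both windows lie inside the span that GENCODE gives the gene, 107296026 to 107302784 for Cish and 117966079 to 117970047 for Socs3. A match is a run of letters and not evidence of binding. Neither gene was called. Cish was 927, 879, 684 and 740 in Scr and 1307, 826, 878 and 761 in siCasp8, where replicate 1 was the highest and the other 3 lay within the Scr range (log2 fold change 0.20, 95% interval -0.12 to 0.52, limma adjusted p = 0.312). The value for Cish was 0.03 without siCasp8 replicate 1 (adjusted p = 0.837), 0.13 without Scr replicate 3 (0.554) and 0.52 with the depth covariate (0.114). Socs3, the feedback inhibitor of gp130 receptors, was 1614, 2042, 1808 and 1952 in Scr and 1611, 1608, 1579 and 1883 in siCasp8 (-0.15, 95% interval -0.31 to 0.02, limma adjusted p = 0.143). Of its siCasp8 libraries 3 lay just below the lowest Scr library and replicate 4 lay among the Scr values, and Socs3 was called once Scr replicate 1 was left out (-0.21, adjusted p = 0.0304) or siCasp8 replicate 4 was (-0.21, adjusted p = 0.0442).

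Socs2, the feedback inhibitor of growth hormone signalling, was 1378, 1287, 1444 and 1276 in Scr and 1392, 1586, 1573 and 1511 in siCasp8. Its groups overlapped through siCasp8 replicate 1 (log2 fold change 0.17, SE 0.0577, limma adjusted p = 0.0324). The call was lost with the depth covariate (0.18, adjusted p = 0.210). It was also lost without Scr replicate 2 (0.0755) or 4 (0.0901) or siCasp8 replicate 2 (0.0972), 3 (0.0850) or 4 (0.0623). Socs1, an inhibitor of interferon receptors and JAKs, was low at 35.2, 19.0, 25.2 and 22.0 in Scr and 30.0, 28.5, 43.0 and 36.7 in siCasp8. The groups overlapped, and the interval was wide (0.45, 95% interval -0.08 to 0.98, limma adjusted p = 0.168).

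Socs6 showed the largest called change of the SOCS genes. It encodes an inhibitor that acts mainly on receptor tyrosine kinases, and it was 4416, 4191, 4273 and 3928 in Scr and 3220, 3364, 3208 and 3313 in siCasp8. The siCasp8 libraries stood at 78.0% of the Scr mean with no overlap, a fall of 0.36 on the log2 scale (SE 0.0416, limma adjusted p = 2.64e-05). Socs5, which has been linked to the EGF receptor and to IL-4 signalling, was 2193, 2194, 2137 and 2175 in Scr and 2411, 2347, 2402 and 2256 in siCasp8. The rise of 0.11 (SE 0.0384, limma adjusted p = 0.0327) was smaller than most. The call was lost with the depth covariate (0.14, adjusted p = 0.154). It was also lost without Scr replicate 3 (0.0604) or 4 (0.0642) or siCasp8 replicate 1 (0.0936), 2 (0.0725) or 3 (0.0810). Socs4 and Socs7 were not called, at 4413 ± 237 and 4298 ± 178 and at 2013 ± 150 and 1955 ± 69.4 in Scr and siCasp8 (SD, n = 4 each).

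Among the phosphatases of the pathway 1 rose and 1 fell. Ptpn6 encodes SHP-1, which is best known as a brake in blood cells (chromosome 6 from 124720707 to 124738714), and was 706, 739, 885 and 852 in Scr and 1192, 1083, 1205 and 969 in siCasp8. The lowest siCasp8 library, replicate 4, exceeded the highest Scr library (log2 fold change 0.48, SE 0.0878, limma adjusted p = 0.000832), and with the depth covariate the change was 0.36 and not called (adjusted p = 0.0891). Ptpn11 encodes the related SHP-2, which binds gp130 and links receptors to the RAS and ERK route (chromosome 5 from 121130533 to 121191397). It was 10544, 11356, 10602 and 11086 in Scr and 9188, 9264, 8928 and 9279 in siCasp8, without overlap, and fell by 0.25 (SE 0.0344, limma adjusted p = 0.000107).

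The phosphatase genes Ptpn1 and Ptpn2, whose products dephosphorylate JAKs and STATs, were not called, with log2 fold changes of -0.05 each and 95% intervals of -0.18 to 0.08 and -0.14 to 0.04. The PIAS genes encode SUMO ligases that restrain STATs in the nucleus, and 1 of 4 was called. Pias2 fell by 0.11, from 3821 ± 92.3 to 3552 ± 109 (SD, n = 4 each, limma adjusted p = 0.0378). That call was lost in 9 of 17 alternatives. Among them were the depth covariate (-0.14, adjusted p = 0.135), no filter on low values (0.0554), upper quartile rescaling (0.102) and quantile normalization (0.122). The others left out Scr replicate 3 (0.0796) or 4 (0.0789) or siCasp8 replicate 1 (0.116), 2 (0.0548) or 4 (0.0894). Pias4 was 1157 ± 125 and 1316 ± 85.0 (0.19, adjusted p = 0.0658) and was called with a replicate block (adjusted p = 0.0404), after upper quartile rescaling (0.0389), without Scr replicate 2 (0.0235) and with the depth covariate (0.35, adjusted p = 0.0467). Pias1 and Pias3 were not called, at -0.04 and 0.07.

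Other genes of the pathway were read from 8 lists, also chosen with earlier results of these data known. The share called in each stands beside 40.2% of all tested genes, 19.4% higher and 20.8% lower. Of 30 ligand genes, 14 were at 0 in every library, among them Osm, Il4, Il13, Il10, Il22, Il1a, Il1b and Ifng, and Il6 was at most 2.57. The test covered 13 ligand genes and called 3 higher and 4 lower, 53.8% of those tested (median 0.09). The highest ligand gene per length was Clcf1, at 10271 per kb in Scr, which encodes a cytokine of the IL-6 family. Clcf1 fell from 11436 ± 359 to 8871 ± 240 (SD, n = 4 each, -0.37, limma adjusted p = 4.88e-06). Another annotated protein-coding gene overlaps Clcf1 on the same strand.

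Il11 fell from 1174, 837, 815 and 882 in Scr to 538, 427, 474 and 482 in siCasp8 (log2 fold change -0.94, SE 0.110, limma adjusted p = 2.99e-05), opposite in direction to its receptor gene Il11ra1. Csf1, which encodes the ligand of the CSF1 receptor, fell by 0.21 together with Csf1r, but with the depth covariate its change was -0.09 (adjusted p = 0.457). Csf2, the gene of the growth factor GM-CSF, was low and rose from 12.4 ± 1.55 to 40.1 ± 8.42 (1.61, adjusted p = 0.000205). Il7 and Il1rn, which encode a lymphocyte growth factor and the IL-1 receptor antagonist, rose by 0.38 and 0.70. Both calls were near the threshold (adjusted p = 0.0357 and 0.0465). They were lost with the depth covariate, where the changes were 0.28 and 0.58 (adjusted p = 0.40 and 0.387). They were also lost without the filter (0.0637 and 0.0682) and after quantile normalization (0.0774 and 0.0641). Leaving out Scr replicate 1, 2 or 4 or siCasp8 replicate 1, 2 or 3 ended the call for Il7 (adjusted p from 0.0654 to 0.0925), and leaving out Scr or siCasp8 replicate 2, 3 or 4 ended that for Il1rn (0.0658 to 0.130). Lif, the ligand of the chain encoded by Lifr, was not called (-0.10, adjusted p = 0.192).

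Of 28 other receptor chains 15 were tested, and 6 were higher and 3 lower with a median of 0.02, so that 60% were called. Among the 6, Il13ra2 passed the filter on low values only through siCasp8, where it was high. Il3ra, which encodes an IL-3 receptor chain, rose from 963 ± 65.3 to 1372 ± 82.6 (log2 fold change 0.51, limma adjusted p = 4.01e-05), and Il15ra, which presents IL-15, rose from 154 ± 17.9 to 246 ± 33.1 (0.67, adjusted p = 0.000799). The 2 chains of the interferon-gamma receptor moved apart, with Ifngr2 higher by 0.27 and Ifngr1 lower by 0.19. Both calls were lost with the depth covariate (0.24 and -0.15, adjusted p = 0.0607 and 0.104). Il20rb fell by 0.45 (adjusted p = 0.0338), which was -0.30 without siCasp8 replicate 1 (adjusted p = 0.0877). Its call was also lost with the depth covariate (-0.45, adjusted p = 0.251) and without the filter (0.0569). The same held without Scr replicate 1 (0.0866), 3 (0.0519) or 4 (0.0547) or siCasp8 replicate 4 (0.0768).

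Response genes of the STATs were called in both directions. Of 28 genes known to respond to STAT3 in hepatocytes 19 were tested, 6 higher and 2 lower with a median of -0.03, so that 42.1% were called, near the 40.2% of all tested genes. Fga, among the 6 higher, averaged 6.17 in Scr and 26.8 in siCasp8, so it passed the filter only through siCasp8. Hpx, which encodes the haem carrier haemopexin, rose from 6612 ± 134 to 8602 ± 94.5 (log2 fold change 0.38, limma adjusted p = 1.37e-06), and the fibrinogen chain gene Fgb rose from 10.2 ± 4.92 to 60.5 ± 9.99 (2.59, adjusted p = 0.000109). Bcl3 rose by 0.20, while Myc fell from 6578 ± 365 to 4955 ± 113 (-0.41, adjusted p = 1.01e-05) and the survival gene Mcl1 fell by 0.16. The calls for Bcl3 and Mcl1 were lost with the depth covariate (0.23 and -0.21, adjusted p = 0.0812 and 0.0526). That for Mcl1 was also lost after quantile normalization (-0.08, adjusted p = 0.138). Saa1, Saa2 and A2m, genes of the acute phase response, were at 0 in every library.

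Of 13 growth hormone and STAT5 response genes 5 were tested, 1 higher and 1 lower with a median of 0.08. That is 40% called, near the 40.2% of all tested genes. Igf1, the best known STAT5 target of the liver, was 209, 201, 218 and 213 in Scr and 413, 386, 338 and 454 in siCasp8 (log2 fold change 0.91, SE 0.0957, limma adjusted p = 1.18e-05). Ghr and Stat5a rose too, while Stat5b and Jak2 were not called in the main fit and Gh was at 0 in every library. Whether growth hormone signalling had a part in the Igf1 value was not tested. Egfr, the gene of the EGF receptor, fell from 29071 ± 1395 to 21949 ± 769 (-0.40, adjusted p = 7.94e-06). Mup3 and Cyp7b1 were at 0 in every library. Of 8 STAT6 response genes 3 were tested and 2 (66.7%) were higher. These were Mrc1, at 29.6 ± 2.40 and 53.4 ± 9.02 (0.82, adjusted p = 0.00380), and Il13ra2, which encodes a decoy receptor for IL-13. Il13ra2 rose from 7.81 ± 4.84 to 24.0 ± 9.02 (1.61, adjusted p = 0.0131). It passed the filter mean of 10 only through siCasp8, where it was high, which favours a call of higher. The share of this list therefore says little. With the depth covariate Il13ra2 was at 0.63 and not called (adjusted p = 0.553), and Il13ra2 counts in the list of receptor chains too.

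Of 17 interferon response genes 14 were tested, 6 higher and 2 lower with a median of 0.25, so that 57.1% were called. Gbp2 and the chemokine gene Cxcl10 rose by 0.60 and 0.76 (limma adjusted p = 6.90e-05 and 0.000253). Irf9, the partner of STAT2, rose by 0.22 (adjusted p = 0.00367), which was 0.20 with the depth covariate (adjusted p = 0.107). Ifit3 and Ifit2 fell by 0.97 and 0.55 (adjusted p = 3.83e-07 and 3.40e-06), so called genes of the list lay in both directions, while Stat2 was not called.

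Of 22 genes of adaptors and of the ubiquitin ligase that SOCS proteins recruit, 4 were higher and 6 lower with a median of 0.01. That is 45.5% called, against 40.2% of all tested genes. Sh2b3, which encodes the adaptor LNK that restrains JAK2, rose from 2047 ± 131 to 2428 ± 104 (log2 fold change 0.25, limma adjusted p = 0.00217), and the phosphatase gene Dusp3 fell from 5022 ± 247 to 4012 ± 153 (-0.32, adjusted p = 8.82e-05). Sos1, which activates RAS behind the receptors, fell by 0.22 (adjusted p = 0.000669). Cul5, the scaffold of the SOCS ubiquitin ligase, fell by 0.20, and Stambp and Stam, which sort receptors on endosomes, rose by 0.15 each. With the depth covariate the calls for Cul5 (-0.15, adjusted p = 0.287), Stambp (0.19, adjusted p = 0.0740) and Stam (0.19, adjusted p = 0.112) were lost. That for Stam was also lost without Scr replicate 2 (0.0697) or 4 (0.0752) or siCasp8 replicate 1 (0.0611), 2 (0.0521) or 3 (0.0788).

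Of 18 partners of the IL-1 and IL-17 receptors 16 were tested, 4 higher and 3 lower with a median of 0.02. That is 43.75% called, near the 40.2% of all tested genes. Il17rd, Irak4 and Myd88 rose by 0.30, 0.27 and 0.19, while Il1rl1, the gene of the IL-33 receptor, Irak2 and Irak1 fell by 0.94, 0.16 and 0.14. MYD88 and the IRAK kinases carry the signal of the IL-1 receptor. The largest adjusted p of these 6 calls was 0.0303, for Irak1. Each of the 6 was lost with the depth covariate (adjusted p from 0.118 for Il1rl1 to 0.376 for Irak2). In the order named, the 6 changes were then 0.26, 0.20, 0.19, -1.06, -0.10 and -0.16. The call for Irak1 was also lost after upper quartile rescaling (0.0686), quantile normalization (0.0782) and without Scr replicate 1 or 3 or siCasp8 replicate 1, 2 or 3 (0.0617 to 0.0983), and that for Myd88 without Scr replicate 1 or 3 or siCasp8 replicate 1 or 4 (0.0595 to 0.0675). Of the 38 genes that the naming rule took from the 8 lists, 18 were called with the depth covariate and 38 kept their direction.

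**Figure D4:**
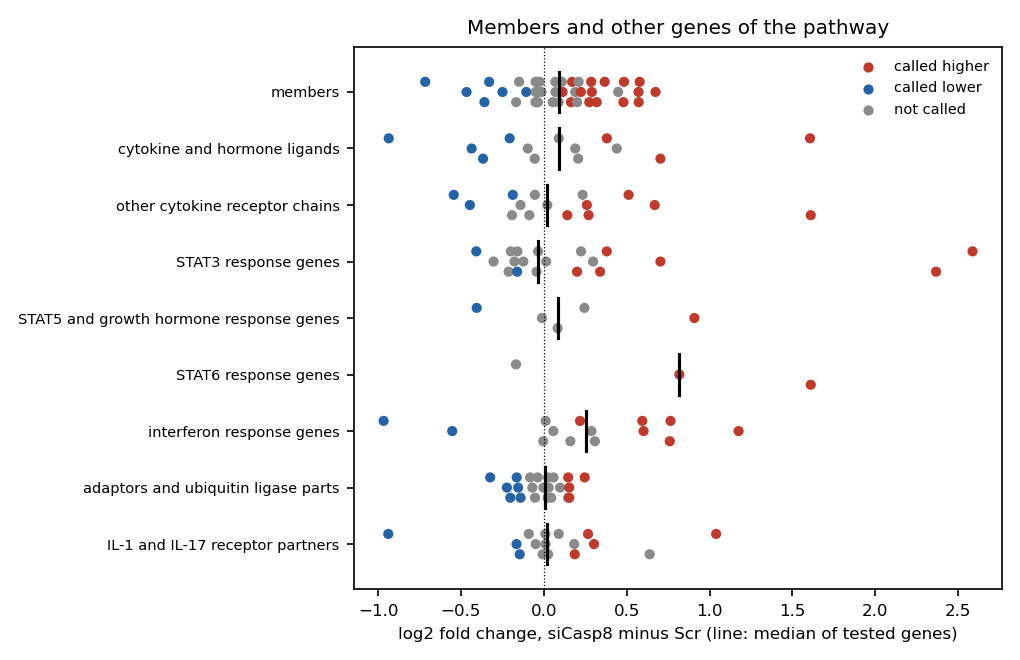
Log2 fold change (siCasp8 minus Scr, x axis) of each tested gene, for the 41 members and the 8 other lists, coloured by the limma call, with a line at the median of each list. The members' median is 0.09, and that of the 14 interferon response genes is 0.25, with Ifit3 at -0.97.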

How the data were processed

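RNA of 8 AML12 cultures was sequenced as poly-A selected libraries. The authors deposited a table of normalized signal per gene and library with no read counts. Per the submitters' processing notes, DESeq2, sleuth, kallisto 0.44.0 and bcl2fastq 2.19 were among the tools, with GRCm38 and GRCh38 as builds and no role for each. Transcript summing and strand use are not given in the sources used here. Named genes numbered 34945, with 12681 at 0 in every library, and 1 line without a gene name (0.0481% to 0.0631% of a library's total) was left out. The size of 1 read was estimated from the steps between low values, which gave depth. Of the low values 63.0% to 75.0% lay within 0.1 of a whole read. No count model was used, because the table was expected to hold normalized values and not reads.

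Groups were compared with limma 3.58.1 in R 4.3.3, with a mean-dependent prior variance, on log2(value + 1) for genes with a mean of at least 10, after the script was tested on simulated data. Members and lists were chosen with earlier results of these data known. Values were given by library for the 18 called, non-overlapping members with the largest changes and for Cish and Socs1 to Socs3. From each other list, up to 3 called genes per direction with the smallest p were named. Some of these results are not reported here. Any other gene named was chosen after its values were seen. Alternatives changed the pseudocount, filter, scaling, depth covariate, replicate block and libraries used. Precision is limited by 4 cultures per group. Promoters are from RefSeq (GRCm38.p6) and positions and lengths from GENCODE (GRCm38).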

Additional observations from a re-analysis of the deposited data

Results flagged for a closer look

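In 4 of 160 groups examined (80 genes in each condition), 1 library stood apart by Dixon's ratio, its gap to the nearest library being above the ratio's 95% critical value as a share of the group's range. Chance alone gives about 1 such group in 20. Jak2 was highest in Scr replicate 3 at 8597 (ratio 0.833), and without that library Jak2 was called higher (log2 fold change 0.11, limma adjusted p = 0.0340). Pias1 was highest in Scr replicate 3 at 3674 (ratio 0.886). Jak3 was highest in siCasp8 replicate 4 at 1808 (ratio 0.859), and its call held without that library. Socs3 was highest in siCasp8 replicate 4 at 1883 (ratio 0.895), and without that library it was called lower (-0.21, limma adjusted p = 0.0442).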

How the results depend on the processing

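Of 21 called members 14 were called under all 17 alternatives, 7 were lost in at least 1 and 0 reversed, while 5 of 20 members that were not called passed in at least 1. With the depth covariate 1287 genes were called higher and 1474 lower, against 2739 and 2950 without it, and 10 and 5 of the members. The median log2 fold change of the members, 0.09, was 0.0991 with a mean of at least 50, 0.116 after upper quartile rescaling and 0.123 after quantile normalization, and 0.0843 to 0.105 when 1 library was left out. Leaving out 1 library gave 12 to 16 members higher and 5 to 7 lower, 19 to 22 without overlap, and a Casp8 change of -1.47 to -1.39. Same-numbered libraries deviated together weakly (Pearson's r across genes of 0.0785, 0.0442, 0.169 and 0.0554 for numbers 1 to 4), but each library correlated best with its own number. Whether the numbers mark pairs is therefore not settled, and the main fit did not use them as pairs. With the replicate block 17 members were higher and 6 lower, and 2868 and 3152 of all genes. Neither the depth covariate nor the replicate block gives a count of groups that do not overlap. Low genes such as Socs1, Prlr and Lepr had wide intervals, and transcript levels do not measure receptor protein or phosphorylated STATs.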

Other observations

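Ratios of values within a library were computed for pairs picked after their values were seen, and are given without a test. Il1rap over Il1r1, the accessory over the binding chain of the IL-1 receptor, was 0.0635 to 0.0886 in Scr and 0.129 to 0.151 in siCasp8. Il11 over Il11ra1, a ligand over its receptor, was 3.52 to 4.66 and 1.18 to 1.64. Ghr over Socs2, the growth hormone receptor over its feedback inhibitor, was 1.61 to 1.83 and 2.18 to 2.70. The ratio of Stat5a to Stat5b was 0.355 to 0.385 and 0.402 to 0.499. Stat3 over Socs3 overlapped between groups, at 4.10 to 4.89 and 4.80 to 6.09.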
